A study of Mus musculus with 4 samples.

Results

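The Schlafen family genes were followed in mouse embryonic stem cells after depletion of hnRNP K. The members were the 7 rows of the deposited table with the symbols Slfn1, Slfn2, Slfn3, Slfn4, Slfn5, Slfn8 and Slfn9, of 22138 genes in all, and members with low values were kept. The family was selected on its RPKM differences between these same groups, so their differences between the groups are given as a description without a test. The series is titled for hnRNP K in silencing by SETDB1, a methyltransferase of histone H3 lysine 9, and the comparison asked which transcripts changed when Hnrnpk was knocked down. TT2 is a female embryonic stem cell line of strain C57BL/6xCBA, kept without feeder cells in medium with serum and LIF, a cytokine that maintains the undifferentiated state. Control siRNA libraries (n = 2) and Hnrnpk siRNA libraries (n = 2) came from cells transfected at 100 nM and, 24 hours later, at 50 nM, with harvest about 72 hours after the second transfection. All 4 libraries therefore share the cell line, the medium and a double transfection. A knockdown is partial, and TT2 is 1 line.

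Schlafen genes take their name from the German word for sleep, after the growth arrest seen when the first of them was expressed in thymocytes. They are known mainly from lymphoid and myeloid cells, where interferon induces several members. Their proteins share a nuclease-like core, which in several of them acts on transfer RNA, and the longer proteins add a helicase-like domain. SLFN11, a human member, is known for blocking translation and stalled replication forks after DNA damage.

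The mouse members form a single cluster on chromosome 11 (GRCm38, 82951349 to 83215154, a span of 264 kb), and the coding length separates them into classes. Slfn1 (83116849 to 83122670, plus strand) and Slfn2 (83065112 to 83070678, plus strand) are short, with 1011 and 1134 coding bases. Slfn3 (83191330 to 83215154, plus strand) and Slfn4 (83175186 to 83190216, plus strand) are intermediate, with 1920 and 1806 coding bases. Slfn5 (82951349 to 82964840, plus strand), Slfn8 (83002158 to 83020810, minus strand) and Slfn9 (82978390 to 82991830, minus strand) are long, with 2652, 2730 and 2730 coding bases. All 7 are annotated as protein coding in GENCODE M21.

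The promoters of the members were read from RefSeq, build GRCm38.p6, and all 7 members matched an entry. They were searched on both strands for GAAANNGAAA, the core of the interferon-stimulated response element, to which the interferon-activated factor ISGF3 and interferon regulatory factors bind. Sequences are the 250 bases before the annotated start, 5′ to 3′ on the strand of the gene, with a match in capitals. The pair with the largest falls in RPKM is shown first, then the remaining long member, then the most abundant member that was higher after Hnrnpk siRNA.
Slfn9, chr11:82991831-82992080, minus strand: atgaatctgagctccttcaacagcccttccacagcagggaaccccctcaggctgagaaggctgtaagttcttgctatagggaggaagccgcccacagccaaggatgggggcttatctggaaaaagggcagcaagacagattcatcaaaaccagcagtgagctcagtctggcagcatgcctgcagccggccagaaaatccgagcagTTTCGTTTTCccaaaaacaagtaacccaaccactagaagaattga
Slfn8, chr11:83020811-83021060, minus strand: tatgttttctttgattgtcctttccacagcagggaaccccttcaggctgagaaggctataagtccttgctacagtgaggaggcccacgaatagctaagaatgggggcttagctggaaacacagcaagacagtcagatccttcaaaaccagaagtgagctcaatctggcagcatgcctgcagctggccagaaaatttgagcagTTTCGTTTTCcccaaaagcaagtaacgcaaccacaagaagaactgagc
Slfn5, chr11:82951852-82952101, plus strand: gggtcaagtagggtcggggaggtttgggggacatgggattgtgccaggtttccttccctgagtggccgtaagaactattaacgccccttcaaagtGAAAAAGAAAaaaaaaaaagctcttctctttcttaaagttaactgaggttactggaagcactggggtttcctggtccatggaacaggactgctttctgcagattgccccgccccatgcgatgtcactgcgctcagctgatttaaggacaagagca
Slfn3, chr11:83191080-83191329, plus strand: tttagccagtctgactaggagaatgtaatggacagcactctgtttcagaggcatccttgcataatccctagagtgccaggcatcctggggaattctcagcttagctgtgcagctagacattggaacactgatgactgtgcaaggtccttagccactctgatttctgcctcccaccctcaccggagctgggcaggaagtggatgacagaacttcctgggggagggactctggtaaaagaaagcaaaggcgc

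Slfn9 and Slfn8 carried the same 10 letters, TTTCGTTTTC, ending 36 and 39 bases before their starts, and at the second annotated start of Slfn8 they ended 127 bases before it. Slfn5 carried GAAAAAGAAA, ending 146 bases before its RefSeq start, at the edge of a run of A. That window lies inside the GENCODE M21 span of Slfn5, which begins at 82951349, so the match is not upstream of the GENCODE start. The windows of Slfn1, Slfn2, Slfn3 and Slfn4 held no match. The letters were present in 2.97% of 32817 promoter windows of this length. Counted per gene, they were present in 3 of 7 members, in 16 of 38 interferon-stimulated genes from a list given further on, and in 936 of 27025 genes in all. A second interferon motif, the gamma-activated site TTCNNNGAA, was also searched and matched no member window, where 7.01% of the 32817 windows held it. The upstream bases of Slfn9 and Slfn8 were 80.0% identical over an alignment of 255 positions, against 42.5% to 49.1% for the other 20 pairs of members. The 4 windows shown held 2 to 6 CpG dinucleotides, where the median over all windows was 6. These are matches of letters, and no binding was measured.

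Schlafen signal in the control cells was almost all Slfn9. RPKM scales reads to transcript length and library size, so levels can be set side by side between genes. The summed RPKM of the 7 members was 5.69 and 5.47 in control replicates 1 and 2, and Slfn9 made up 87.6% and 88.1% of it. In Hnrnpk siRNA replicates 1 and 2 the sum was 1.53 and 1.30, and the share of Slfn9 was 45.1% and 38.5%. Without Slfn9 the sum was 0.706 and 0.652 in control cells, against 0.837 and 0.798 after Hnrnpk siRNA. The drop of the family's sum was therefore a drop of Slfn9. In bulk RNA, fewer cells that express a gene and less RNA in each cell cannot be told apart.

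**Figure D1:**
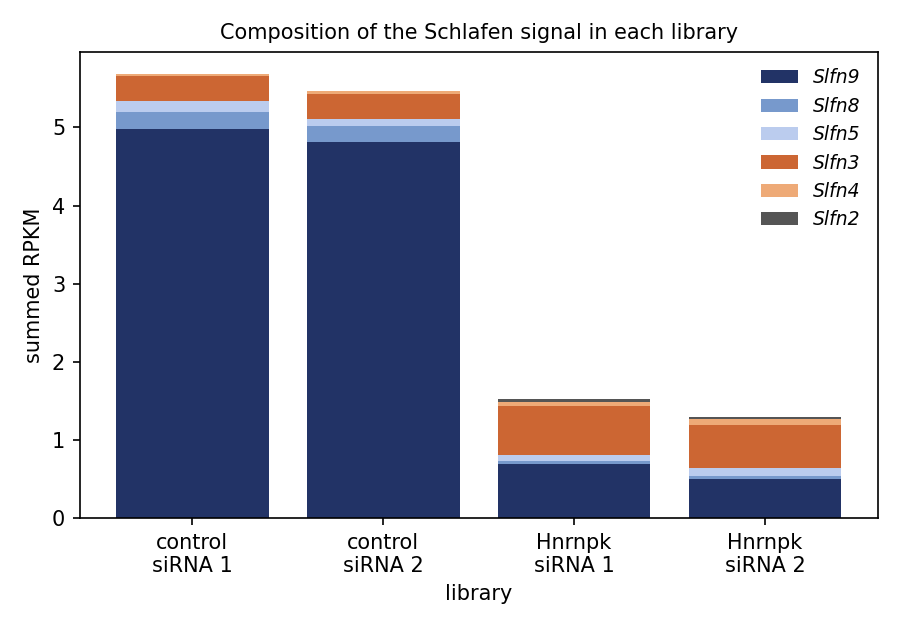
Summed RPKM of the Schlafen genes (vertical axis) in each of the 4 libraries (horizontal axis), with a colour for each gene; Slfn1 is 0. The control bars reach 5.69 and 5.47 and are mostly Slfn9. The Hnrnpk siRNA bars reach 1.53 and 1.30, with Slfn3 the second largest part in replicate 1 and the largest in replicate 2.

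Among the long members, Slfn9 (ENSMUSG00000069793) had 4.98 and 4.82 RPKM in the control libraries and 0.689 and 0.50 RPKM after Hnrnpk siRNA. The libraries of the groups lay far apart, with means of 4.90 ± 0.115 and 0.594 ± 0.133 RPKM (SD, n = 2 each), 8.24-fold lower after Hnrnpk siRNA. On the log2(RPKM + 0.5) scale used for the whole table the difference was -2.31 (SE 0.104). In the control libraries 63.3% and 63.4% of all genes lay below Slfn9, and in the Hnrnpk siRNA libraries 46.6% and 44.2%.

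Slfn8 (ENSMUSG00000035208), the nearest relative of Slfn9 and its neighbour at a distance of 10.3 kb, moved the same way from a much lower level. It had 0.215 and 0.195 RPKM in the control libraries and 0.0486 and 0.0424 RPKM after Hnrnpk siRNA. The groups did not overlap, and the means of 0.205 ± 0.0143 and 0.0455 ± 0.00436 RPKM (SD, n = 2 each) made it 4.50-fold lower. Slfn8 stood at 4.32% and 4.04% of the Slfn9 level in the control libraries and at 7.06% and 8.48% in the Hnrnpk siRNA libraries, so its drop was the smaller one in relative terms.

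Slfn5 (ENSMUSG00000054404), a long member known as an interferon-induced nuclear protein, showed no separation. It had 0.142 and 0.0987 RPKM in the control libraries and 0.0683 and 0.102 RPKM in the Hnrnpk siRNA libraries, and Hnrnpk siRNA replicate 2 lay above control replicate 2. The means were 0.120 ± 0.0303 and 0.0850 ± 0.0236 RPKM (SD, n = 2 each). Its exons, 6326 bases in all, share 559 bases with Slfn5os, an antisense RNA gene on the other strand. The sources used here do not say whether counting used the strand, so reads from the shared bases cannot be told apart.

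The intermediate members went the other way. Slfn3 (ENSMUSG00000018986), described in T cells and intestinal epithelium, had 0.322 and 0.317 RPKM in the control libraries and 0.630 and 0.546 RPKM after Hnrnpk siRNA. The groups did not overlap, with means of 0.320 ± 0.00361 and 0.588 ± 0.0592 RPKM (SD, n = 2 each), 1.84-fold higher after Hnrnpk siRNA. Slfn4 (ENSMUSG00000000204), known from myeloid cells, lies 1.11 kb from Slfn3. It had 0.0225 and 0.0313 RPKM in the control libraries and 0.0496 and 0.0827 RPKM in the Hnrnpk siRNA libraries. Again the groups did not overlap, and the means of 0.0269 ± 0.00624 and 0.0662 ± 0.0234 RPKM (SD, n = 2 each) were 2.46-fold apart, with the wider spread after Hnrnpk siRNA.

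The short members were nearly silent. Slfn1 (ENSMUSG00000078763), the founding member described in thymocytes, was listed at 0 in all 4 libraries. Slfn2 (ENSMUSG00000072620), known for holding T cells in quiescence and for protecting transfer RNA from cleavage, had 0.00484 and 0.00986 RPKM in the control libraries and 0.0407 and 0.0247 RPKM in the Hnrnpk siRNA libraries. These values were worth 1.0, 2.0, 7.5 and 4.5 counting units in the same order. A unit is the commonest product of RPKM and exonic length among low values of single-exon genes in a library, and fractions occur. The Hnrnpk siRNA libraries lay above the control libraries, but on so few units no fold is given.

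**Figure D2:**
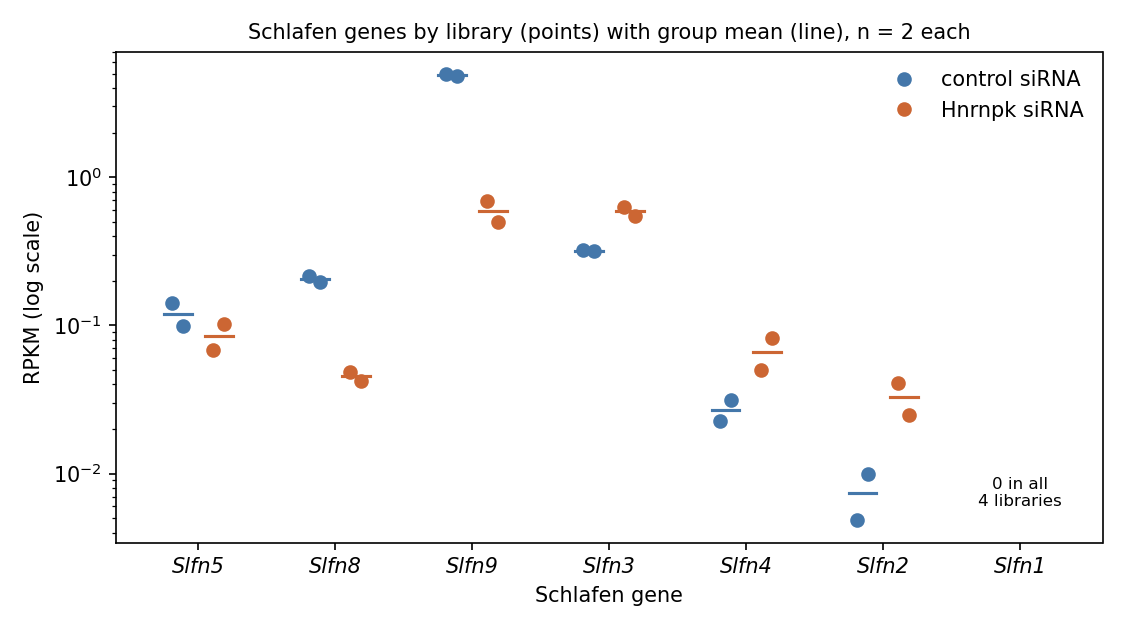
RPKM on a log scale (vertical axis) of the 7 Schlafen genes (horizontal axis), ordered as long, intermediate and short members, with a point for each library and a line at each group mean (n = 2). Slfn9 and Slfn8 lie lower after Hnrnpk siRNA, Slfn3, Slfn4 and Slfn2 lie higher, Slfn5 overlaps, and Slfn1 is 0 throughout.

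The order of levels differed between the groups. In control cells it ran Slfn9, Slfn3, Slfn8, Slfn5, Slfn4, Slfn2 and Slfn1, and no library of a gene overlapped those of the next. After Hnrnpk siRNA, Slfn9 and Slfn3 remained highest by their means, now with overlapping libraries, at 0.50 to 0.689 and 0.546 to 0.630 RPKM. Slfn5 and Slfn4 followed and overlapped too, and Slfn8, above both in control cells, lay below them.

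Counted over the 6 members above 0, the groups did not overlap for 5, of which 2 were lower and 3 higher after Hnrnpk siRNA. Among 18814 genes above 0 in the table the groups did not overlap for 76.5%, with 37.5% lower and 39.0% higher. Among the 6328 genes with a mean above 0 and under 0.5 RPKM, where every member but Slfn9 and Slfn1 belongs, the share was 60.4%. Nothing is read from the members' count. Only Slfn9 of the 7 members reached the mean of 0.5 RPKM required for testing, and Slfn3 fell just short at 0.454 RPKM. Because the family was selected on this difference, no call or p is given for Slfn9. Over the 12486 genes tested, limma called 32.2% higher and 35.0% lower at an adjusted p under 0.05, and 4.52% were called lower by at least 2-fold.

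Sequence shared between members limits how far reads can be assigned. Slfn8 matched Slfn9 over 3857 bases at 92.0% identity, and the longest run of identical bases was 139. Slfn10-ps, a transcribed pseudogene of the cluster that is not a member, shared a run of 236 identical bases with Slfn9. For Slfn10-ps the control RPKM was 0.306 and 0.287, the knockdown RPKM 0.264 and 0.235, and the ratio of means 0.841. The pseudogene was too low to test, and this ratio does not show where reads shared with Slfn9 were counted. Slfn3 and Slfn4 matched over 1172 bases at 96.2% identity, with a longest identical run of 95 bases, and 84.3% of the Slfn3 transcript matched other genes with 95% identity or higher, in stretches of 100 bases and longer. Slfn2 and Slfn4 shared a run of 101 identical bases. By the same measure 21.7% of the Slfn9 transcript matched another gene, Slfn8. The sources used here do not say how reads with several matches were counted. Their part in the values of Slfn9, Slfn8, Slfn3, Slfn4 and Slfn2 was not tested.

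Genes around the cluster were taken from a list of names, kept where GENCODE M21 places them within 500 kb of a member. Of 19 measured, 12 were tested, with 2 called higher, 6 lower and 4 not called (limma, Benjamini-Hochberg), where 67.2% of all genes tested were called. The median log2 change was -0.15, against -0.015 over all genes tested.

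The larger of the rises lay beside the cluster. Unc45b, a myosin chaperone gene next to Slfn5, rose from 0.350 and 0.251 RPKM to 1.28 and 1.31 RPKM (log2 change 1.17, SE 0.102, limma adjusted p = 8.82e-06).

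The falls were smaller than that of Slfn9. Because the Schlafen family was selected on this difference, nothing is read from that order. Taf15, for an RNA-binding protein, fell from 40.3 and 45.0 to 26.2 and 28.2 RPKM, and its log2 change was -0.64 (SE 0.0743, limma adjusted p = 5.01e-05). Mmp28, a metalloproteinase gene, and Rasl10b, for a Ras-like GTPase, fell with log2 changes of -0.74 and -0.66 (SE 0.107 and 0.101). Cct6b, Lig3 and Ap2b1 fell by 0.40, 0.26 and 0.19 on the log2 scale. The call was lost for Cct6b without Hnrnpk siRNA replicate 1, where the change was -0.30, and for Ap2b1 without control replicate 1 or Hnrnpk siRNA replicate 2, at -0.18 and -0.14. Zfp830, Rffl, Nle1 and Rad51l3, with log2 changes of 0.17, -0.11, 0.059 and -0.065, were not called. The remaining 7 were too low to test: Fndc8, Gas2l2, 1700020L24Rik, Slfn10-ps, Ccl5, Ccl6 and Ccl9, none above 0.306 RPKM in any library.

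**Figure D3:**
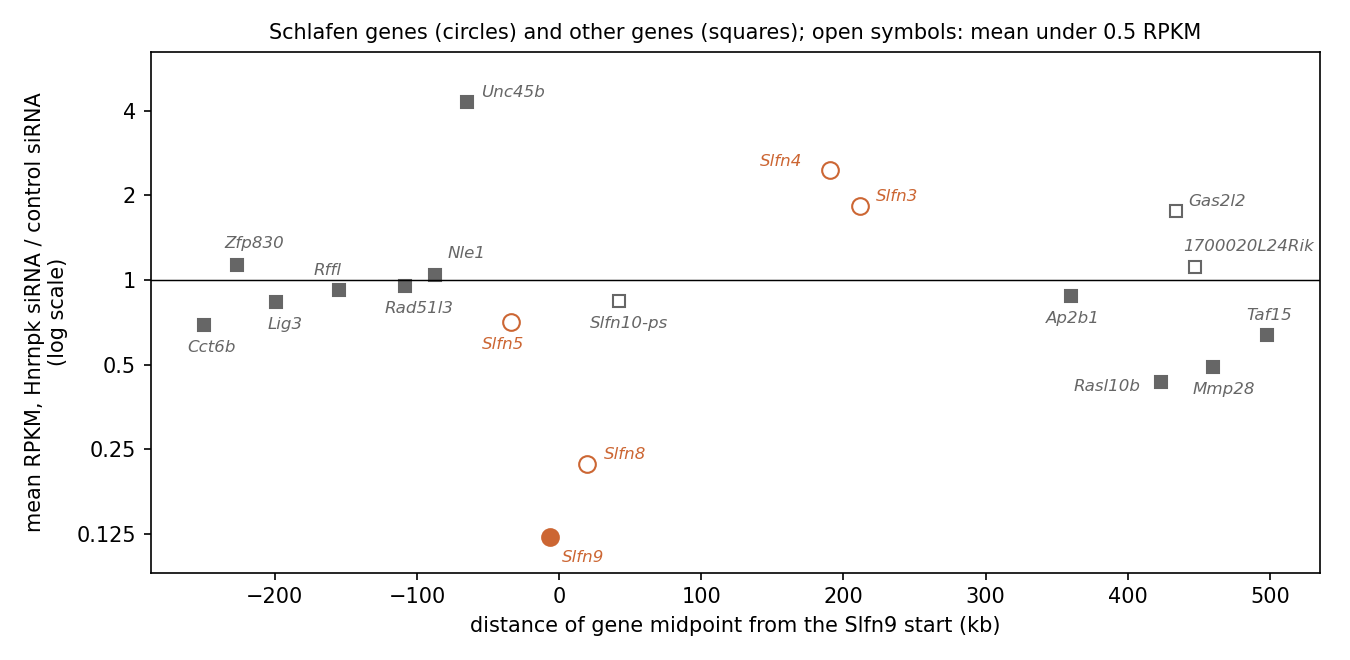
Ratio of mean RPKM, Hnrnpk siRNA over control siRNA, on a log scale (vertical axis) against the distance of each gene's midpoint from the Slfn9 start in kb (horizontal axis), for the genes reported here with a control mean of at least 0.02 RPKM. Schlafen genes are circles and other genes squares; open symbols have a mean under 0.5 RPKM. Slfn9 and Slfn8 sit at 0.121 and 0.222, with Slfn5 at 0.708 on one side and Slfn10-ps at 0.841 on the other.

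Interferon acts through cell surface receptors and JAK kinases, and several Schlafen genes are among its targets. Of 25 interferon signalling genes measured, 17 were tested, and 8 were called higher and 8 lower (limma), with 5 higher when Hnrnpk siRNA replicate 2 was left out. Over all genes tested 67.2% were called, 32.2% higher and 35.0% lower. The median log2 change of the list was 0.068, against -0.015 over all genes tested. Socs3 and Irf1, a feedback inhibitor of JAK signalling and an interferon regulatory factor, fell. Socs3 had 85.3 and 70.3 RPKM in the control libraries and 35.6 and 35.1 RPKM in the Hnrnpk siRNA libraries (log2 change -1.12, SE 0.0869, limma adjusted p = 4.23e-06). Irf1 had 13.7 and 12.9 RPKM in the control libraries and 7.25 and 7.15 RPKM in the Hnrnpk siRNA libraries (log2 change -0.84, SE 0.0718, limma adjusted p = 7.50e-06).

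Other signalling genes went both ways. The receptor-bound kinase gene Tyk2 fell by 0.48 on the log2 scale, while the regulatory factor genes Irf5 and Irf3 rose with log2 changes of 0.93 and 0.45. The limma adjusted p of these 3 was at most 0.000712. Among the interferon ligands, Ifnb1 and Ifne were listed at 0 in all 4 libraries. Ifna4, Ifng and Ifnk were above 0 in 1 library each, none above 0.0112 RPKM. These ligands are named for their role in the pathway, outside the rule for naming genes.

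Interferon-stimulated genes, the wider group to which several Schlafen genes belong, were mostly lower. Of 46 measured, 30 were tested, of which 21 were called lower, 5 higher and 4 not called (limma), where 35.0% of all genes tested were called lower and 32.2% higher. The median log2 change was -0.42, against -0.015 over all genes tested. The number called lower was 17 to 21 when single libraries were left out.

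The genes with the lowest p among them were Xaf1, Dtx3l, Ifitm1, Ifitm3 and Dhx58. Dtx3l, a ubiquitin ligase gene, fell from 6.51 and 6.79 to 2.85 and 2.78 RPKM (log2 change -1.11, SE 0.0795, limma adjusted p = 2.63e-06). Ifitm1 and Ifitm3 encode membrane proteins that hinder virus entry and are abundant in these cells. Ifitm1 fell from 279 and 256 to 118 and 135 RPKM, and Ifitm3 from 356 and 371 to 214 and 220 RPKM, with log2 changes of -1.08 and -0.74 (SE 0.0807 and 0.0662). Dhx58, for the RNA sensor LGP2, fell from 1.38 and 1.21 to 0.358 and 0.347 RPKM (log2 change -1.07, SE 0.0986). Xaf1, a proapoptotic gene, rose from 0.310 and 0.267 to 1.52 and 1.58 RPKM, and its log2 change was 1.38 (SE 0.0953, limma adjusted p = 2.16e-06). Of the 16 untested genes 7 were under 0.1 RPKM in every library, among them Ifit1, Ifit3, Mx1, Mx2, Rsad2 and Ifih1. The other untested genes were detected, with values of up to 0.786 RPKM.

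**Figure D4:**
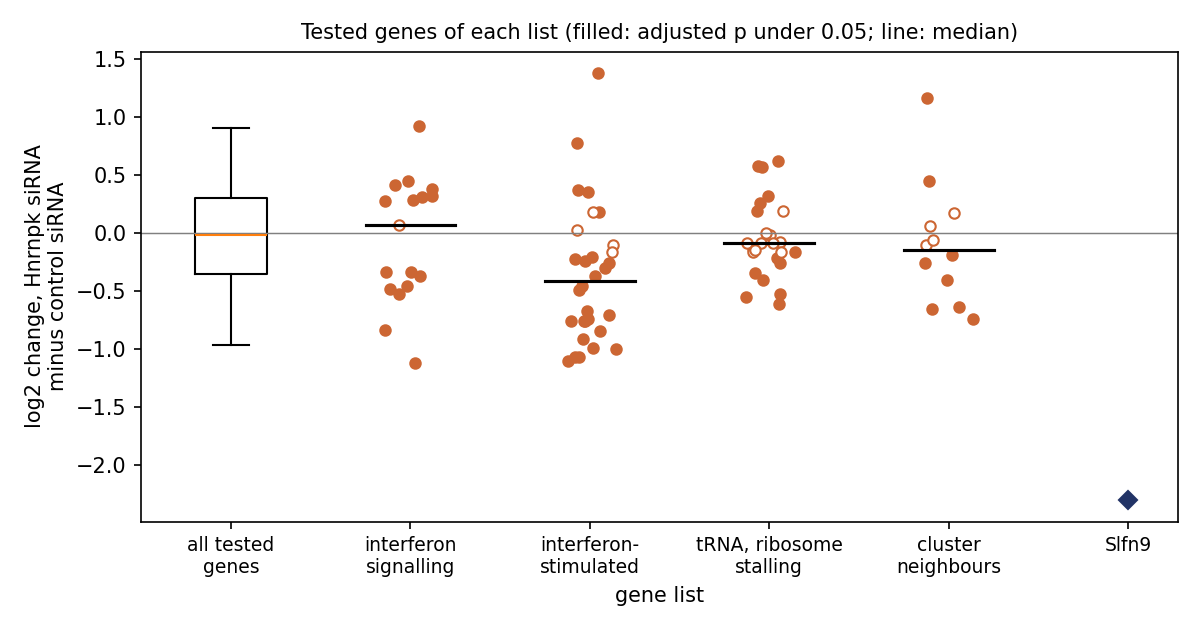
Log2 change, Hnrnpk siRNA minus control siRNA (vertical axis), for the tested genes of each list and for Slfn9 (horizontal axis); filled points have a limma adjusted p under 0.05, lines are list medians, and the box and whiskers give the quartiles and the 5th and 95th percentiles of all 12486 genes tested. The interferon-stimulated genes have a median of -0.42. Slfn9, at -2.31, is from the family selected on this difference, so nothing is read from its place against the lists.

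Transfer RNA is a known substrate of several Schlafen proteins, and its damage or a stalled ribosome is sensed through GCN1 and the kinase GCN2. Of 27 measured genes for transfer RNA cleavage and ribosome stalling, 26 were tested, with 6 called higher, 8 lower and 12 not called (limma), where 67.2% of all genes tested were called. The median log2 change was -0.088, against -0.015 over all genes tested. Eif2ak4, which encodes GCN2, had 10.8 and 10.2 RPKM in the control libraries and 6.69 and 6.68 RPKM in the Hnrnpk siRNA libraries (log2 change -0.61, SE 0.0728, limma adjusted p = 6.03e-05). Gcn1l1, which encodes its activator GCN1, fell by 0.40 on the log2 scale (SE 0.0668), and Gtpbp1, for a translational GTPase, fell by 0.55 (SE 0.0626). Impact, for a protein that competes with GCN2 for GCN1, rose from 32.2 and 32.7 to 50.3 and 50.3 RPKM (log2 change 0.62, SE 0.0599). Trmt6, for a subunit of a transfer RNA methyltransferase, rose too, with a log2 change of 0.57 (SE 0.0817). The highest limma adjusted p of these 5 genes was 0.000500.

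The genes most like Slfn9 were found by the Euclidean distance between profiles of log2(RPKM + 0.5), each centred on its own mean, over the 4 libraries and 12486 genes. They were Pdk1 at a distance of 0.177, Egr1 at 0.258, Foxk2 at 0.262, Mt3 at 0.312 and Tubb4 at 0.338. Pdk1 encodes a kinase that inhibits pyruvate dehydrogenase, Egr1 and Foxk2 transcription factors, Mt3 a metallothionein and Tubb4 a tubulin. Pdk1 had 34.5 and 32.1 RPKM in the control libraries and 5.96 and 5.69 RPKM in the Hnrnpk siRNA libraries. Tubb4 had 10.6 and 8.23 RPKM in the control libraries and 1.82 and 1.78 RPKM in the Hnrnpk siRNA libraries. With 4 libraries in 2 groups, such a distance reflects little more than the size of the difference between the groups.

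Values above 0 were listed for 17566 to 18077 genes per library, RPKM summed to 359659 to 390467, and the relative depth was 0.882 to 1 with control replicate 1 set to 1. Hnrnpk itself had 236 and 226 RPKM with control siRNA, against 68.0 and 70.5 RPKM after its knockdown. All 12 embryonic stem cell markers were detected, with summed levels of 4331 and 4199 RPKM in the control libraries and 4978 and 5302 RPKM in the Hnrnpk siRNA libraries. Dppa5a, the most abundant of them, made up 1320 and 1276 against 2164 and 2451 RPKM, and without it the sum was 3011 and 2923 against 2814 and 2851 RPKM. Of 12 lymphoid markers 5 were under 0.1 RPKM in every library, Il7r was listed at 0 throughout, and the sum was 30.9 and 34.5 against 25.8 and 27.1 RPKM. Lck made up 19.7 and 24.2 against 13.9 and 14.6 RPKM of it. Without Lck the lymphoid sum was 11.2 and 10.3 against 11.8 and 12.6 RPKM. Of 10 macrophage and granulocyte markers 7 were under 0.1 RPKM in every library, and Lyz1, S100a8 and S100a9 were 0 throughout. Their sum was 13.0 and 11.7 against 49.7 and 50.3 RPKM, of which Cd68, for a lysosomal protein, made up 10.9 and 9.79 against 47.0 and 47.5 RPKM. Of 10 fibroblast markers 5 were under 0.1 RPKM in every library, and the sum was 10.8 and 9.74 against 6.08 and 6.23 RPKM. Thy1 made up 6.90 and 5.20 against 2.22 and 2.28 RPKM of it. Without Thy1 the fibroblast sum was 3.89 and 4.55 against 3.87 and 3.95 RPKM. The part of these differences in the Schlafen values was not tested.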

How the data were processed

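The labels give 2 control siRNA and 2 Hnrnpk siRNA RNA-seq libraries and name both ribosomal RNA depletion and poly(A) selection. The authors deposited RPKM per gene for each library. BWA, SAMtools and build mm9 are named in the submitters' processing notes; counting tool and annotation: not given in the sources used here. Gene positions and transcripts were taken by Ensembl identifier from GENCODE M21 (GRCm38), whose models may not be those behind the RPKM values.

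The 12486 genes whose mean reached 0.5 RPKM were tested on log2(RPKM + 0.5) by limma (3.58.1, R 4.3.3), two-sided, with prior variance following mean level, adjusted by Benjamini-Hochberg over all of them and called under 0.05. With 2 against 2, an exact permutation test of 1 gene cannot go below p = 0.333, so calls rest on the variance pooled across genes. The procedure was tested on simulated data. Separate cultures are not stated, so p-values may measure technical spread only.

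Values were not whole reads: 27.2% to 30.0% of low values of single-exon genes lay within 0.02 of a whole unit. Relative depth came from the commonest ratio between libraries at low values, and units from the commonest product of RPKM and exonic length. Transcripts were compared with BLAST 2.17.0.

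Members and lists were chosen with earlier results of these data known. Named were all members, Hnrnpk, up to 5 called genes per list by lowest p, all cluster neighbours in the table except 1 that is not reported here, and the 5 genes nearest to Slfn9. Alternatives were other added constants, filters and scalings, single libraries left out, and a replicate block. Listed symbols not matched in the table, such as Slfn14, were not analysed here.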

Additional observations from a re-analysis of the deposited data

How the results depend on the processing

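Over 11 alternatives the log2 difference of Slfn9 lay between -2.86 (an added 0.1 RPKM) and -1.89 (an added 1 RPKM), against -2.31. That of Slfn8 lay between -1.07 and -0.20, that of Slfn3 between 0.27 and 0.71 and that of Slfn4 between 0.054 and 0.38. The added constant compresses members this low. Other filters and the replicate block cannot move the members' values, which are differences of group means, and left Slfn9 at -2.31. Of 33 other genes 28 kept their sign and their side of the threshold under the alternatives that could be run for them. The uncalled Nle1 changed sign without Hnrnpk siRNA replicate 2 (-0.031 to 0.148 without single libraries), and the uncalled Rad51l3 without control replicate 1 (-0.165 to 0.035); the cause was not tested. Zfp830 passed the threshold under 3 alternatives, and Cct6b and Ap2b1 missed it without single libraries. Cluster neighbours called higher numbered 4 with no filter and 1 with a mean of at least 1 RPKM, where more and fewer genes were tested, and 2 to 3 without single libraries. Interferon signalling genes called higher numbered 5 to 8 without single libraries, 5 being without Hnrnpk siRNA replicate 2. With the replicate number as a block, 4162 genes were called higher and 4460 lower, against 4025 and 4371 without it, and 21 interferon-stimulated genes were still called lower. Deviations of same-numbered libraries correlated at 0.027 over 12486 genes, so the numbers are not shown to pair the samples. A library left alone in its group was assumed to vary like the other group. The depth limits Slfn2 and Slfn1 most.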
